A study of Mus musculus with 64 samples.

Results

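The 16 striatal libraries of the series fell into a low side of 7 libraries and a high side of 9 libraries by their level of Csnk1e, whatever genotype their labels gave. Levels are in CPM, the reads of a gene divided by all gene reads of its library and scaled to a common total. A library was placed on the low side under 58 CPM of Csnk1e and on the high side above it. The labels give 8 Csnk1e knockout and 8 wild type mice, all naive and about 50 days old, with striatal punches of both hemispheres pooled per mouse. Poly(A) RNA was sequenced as single-end reads with a stranded TruSeq kit. The punch diameter stands as 2.5 mm in the extraction protocol and as 3 mm in the design text. The sources used here give neither the strain, nor the sex of the mice, nor which part of Csnk1e was deleted.

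Csnk1e encodes casein kinase 1 epsilon, a serine and threonine kinase that phosphorylates the PERIOD proteins of the circadian clock and acts on Dishevelled in Wnt signalling. Its closest relative, Csnk1d, shares much of this work. In the striatum, the input nucleus of the basal ganglia, most neurons are spiny projection neurons of the direct and the indirect pathway, and their dopamine response runs through DARPP-32. Alleles of genes that lie close together on a chromosome are usually inherited together, and for this reason the position of the genes that differed was examined.

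Promoter windows are shown for 4 genes: Csnk1e, which sets the sides, Mesp2 and Lgals2, the called genes with the largest differences, and Pla2g6, the called gene nearest to Csnk1e. The sequences are those of RefSeq on GRCm38.p6, from 250 bases before to 50 bases after the start, 5′ to 3′ on the strand of the gene. Windows were found for 4 of the 11 genes looked up, and of the 4 listed for Csnk1e the first is shown. All 4 lie at starts inside the interval given for Csnk1e below, not at its minus-strand start at 79455566. Capitals mark the GC box, searched as GGGCGG and as its reverse complement CCGCCC. A second motif, the clock E-box CACGTG, reads the same on both strands and does not overlap the GC box.
Csnk1e, chr15:79442094-79442393, minus strand: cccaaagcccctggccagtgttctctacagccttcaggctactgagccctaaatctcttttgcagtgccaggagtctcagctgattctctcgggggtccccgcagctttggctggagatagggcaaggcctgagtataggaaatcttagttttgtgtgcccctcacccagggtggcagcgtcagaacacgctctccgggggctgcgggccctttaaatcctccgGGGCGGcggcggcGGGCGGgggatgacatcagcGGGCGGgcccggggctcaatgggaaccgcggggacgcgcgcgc
Mesp2, chr7:79810477-79810776, plus strand: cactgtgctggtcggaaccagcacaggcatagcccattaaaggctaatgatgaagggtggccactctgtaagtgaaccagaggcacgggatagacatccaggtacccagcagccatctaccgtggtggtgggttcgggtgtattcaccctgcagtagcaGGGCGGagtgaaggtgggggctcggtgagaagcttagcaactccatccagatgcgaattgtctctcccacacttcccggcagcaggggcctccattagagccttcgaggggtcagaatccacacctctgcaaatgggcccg
Lgals2, chr15:78855480-78855779, minus strand: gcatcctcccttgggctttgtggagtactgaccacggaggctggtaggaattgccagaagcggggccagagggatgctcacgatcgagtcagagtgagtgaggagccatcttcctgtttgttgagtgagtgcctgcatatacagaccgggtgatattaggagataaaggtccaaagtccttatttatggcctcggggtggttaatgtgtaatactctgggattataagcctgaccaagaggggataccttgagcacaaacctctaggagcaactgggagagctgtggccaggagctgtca
Pla2g6, chr15:79328322-79328621, minus strand: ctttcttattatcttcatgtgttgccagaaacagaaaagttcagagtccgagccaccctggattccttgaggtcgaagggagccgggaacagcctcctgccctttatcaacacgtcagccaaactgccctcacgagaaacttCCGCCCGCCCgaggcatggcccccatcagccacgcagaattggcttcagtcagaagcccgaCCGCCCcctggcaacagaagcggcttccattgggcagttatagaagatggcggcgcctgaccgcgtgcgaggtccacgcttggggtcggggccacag
The windows shown of Csnk1e and Pla2g6 each held 3 GC boxes, the 3 overlapping windows of Csnk1e that are not shown held 5, 6 and 6, that of Mesp2 held 1 and that of Lgals2 held 0. The E-box was in 0 of the windows of these genes, shown or not. Over all 32851 windows of the same length, 35.7% held a GC box and 7.15% held the E-box. These matches describe the letters of the windows only.

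Csnk1e, on chromosome 15 from 79417856 to 79455566 on the minus strand in GRCm38, ran from 38.6 to 45.7 CPM with a median of 42.3 CPM in the 7 libraries of the low side. In the 9 libraries of the high side it ran from 71.7 to 86.0 CPM with a median of 76.7 CPM. The values nearest the threshold were therefore 45.7 and 71.7 CPM, and no library lay between them. The medians stood in a ratio of 1.81, and raw counts were 923 to 1290 reads on the low side and 1802 to 2315 reads on the high side. Taken lane by lane, Csnk1e was between 34.4 and 50.8 CPM on the low side and between 67.8 and 90.4 CPM on the high side, so each of the 4 lanes placed every library on the same side. Since this level chose the sides, these values are a description and were not tested.

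The sides cut across the labels. The low side held the libraries labelled knockout 6 to 8 and those labelled wild type 1, 2, 3 and 8, and the high side held those labelled knockout 1 to 5 and wild type 4 to 7. Among library numbers 1 to 8, the 5 libraries labelled knockout were all high and the 3 labelled wild type were all low. Among numbers 9 to 17, the 3 labelled knockout were low, 4 labelled wild type were high and 1 labelled wild type was low. The targeted gene thus goes against the labels in the first set, and in the second set it does so in the library labelled wild type 8. No library is called a knockout here from its Csnk1e level.

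**Figure D1:**
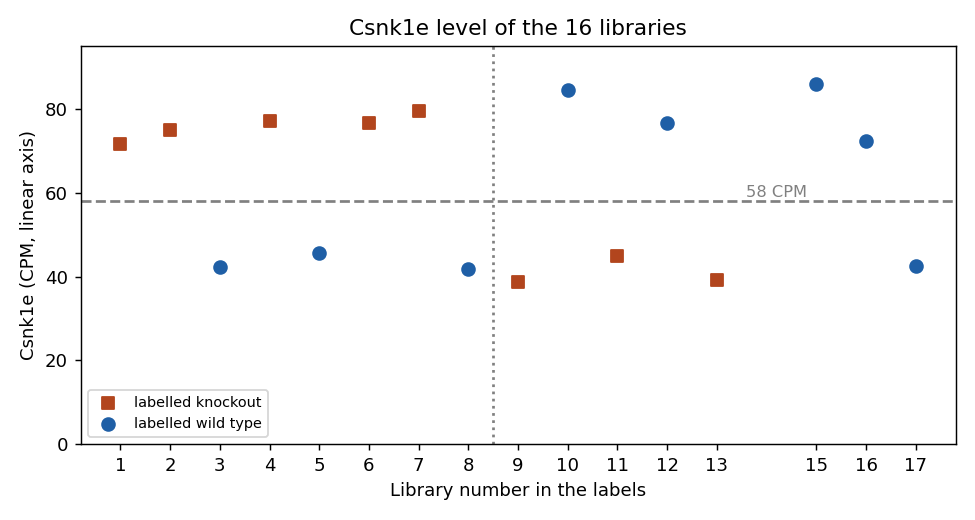
Csnk1e in each of the 16 libraries in CPM (vertical axis) by library number (horizontal axis), with the labelled genotype as the marker and the 58 CPM threshold as a line. The 7 libraries under the line lie between 38.6 and 45.7 CPM and the 9 above it between 71.7 and 86.0 CPM, with both labels on both sides.

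Libraries held 22088005 to 30238947 gene reads, and reads outside any gene made up 18.0% to 19.8% on the low side and 18.2% to 19.7% on the high side. A pair of libraries on the high side stood apart: Ttr, the transthyretin transcript of choroid plexus, was at 1472 CPM in the library labelled knockout 1 and 2149 CPM in the library labelled wild type 7, against 1.12 to 121 CPM in the other libraries. Xist, the X inactivation transcript, was above 1000 CPM in 1 of the 7 low libraries and 4 of the 9 high libraries. With the Xist level as a covariate 10 genes were called, of which 9 were also called without it: Nudcd1 lost its call and Cthrc1, a secreted glycoprotein gene of chromosome 15, gained one (adjusted p = 0.0447 by edgeR). The library labelled knockout 3, on the high side, held Xist at 1154 CPM together with Ddx3y, a Y-linked helicase, at 6.96 CPM, and without it 12 genes were called. Summed levels of the indirect pathway markers, such as Penk and Drd2, were 1314 to 2049 CPM over all libraries, so the labelled tissue had its defining transcripts. Markers of excitatory neurons of the cortex, which borders the striatum, summed to 572 to 1165 CPM. The labels number 16 separate mice. Because bulk tissue was measured, fewer cells of a type and less RNA per cell cannot be told apart.

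Few genes other than Csnk1e differed between the sides, and 9 of the 10 that did lie on its own chromosome. Of 15516 genes tested by the quasi-likelihood test of edgeR, 10 (0.0644%) had a Benjamini-Hochberg adjusted p under 0.05, with 5 (0.0322%) higher and 5 (0.0322%) lower on the low side. At an unadjusted p under 0.05 there were 557 genes (3.59%), 328 of them higher (2.11%) and 229 lower (1.48%). Higher on the low side were Mesp2, Lgals2, Pla2g6, Jrk and A930017M01Rik, and lower were Mroh5, Lynx1, Rpl3, Nudcd1 and Spag1. Folds below are log2, low side minus high side. The p-values measure the spread between these libraries only, and the sides were defined from the libraries and not assigned by the study.

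Mesp2 encodes a basic helix-loop-helix transcription factor known for somite segmentation, and it was the called gene with the smallest p and the sole one on another chromosome (7:79810727-79813439, plus strand). It was low in abundance, with 44 to 70 reads per library on the low side and 7 to 20 on the high side. Its lowest, median and highest levels were 1.99, 2.48 and 2.84 CPM on the low side and 0.263, 0.468 and 0.757 CPM on the high side. The sides did not overlap, and every low library stood above every high one. The log2 fold change was 2.25 (SE 0.16, 95% interval 1.90 to 2.59), or 4.74-fold, with adjusted p = 4.15e-07 by edgeR.

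Lgals2 encodes galectin-2, a lectin that binds beta-galactosides, and lies 0.562 Mb from Csnk1e. Its levels were 0.637, 0.852 and 1.04 CPM (lowest, median, highest) on the low side and 0.0360, 0.151 and 0.298 CPM on the high side. These rest on 17 to 24 and 1 to 7 reads per library, and the sides did not overlap. The log2 fold change was 2.39 (SE 0.26, adjusted p = 0.000191 by edgeR). Lgals2 passed the filter on low counts only through the low side, where it is high. It was not tested under the stricter filter of 1 CPM in 7 libraries. Of the 14 alternatives run it was tested in 11 and called in 10. With no filter on low counts its adjusted p by edgeR was 0.000199. Cdc42ep1, which overlaps its end on the other strand, had a log2 fold change of -0.00 (SE 0.09).

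Pla2g6 encodes a calcium-independent phospholipase A2 that acts in membrane lipid remodelling, and lies 0.0895 Mb from Csnk1e. It stood at 21.5, 24.6 and 25.7 CPM (lowest, median, highest) on the low side and at 15.0, 17.9 and 20.7 CPM on the high side, again without overlap. Its log2 fold change was 0.48 (SE 0.06, adjusted p = 0.00173 by edgeR). Jrk, a nuclear protein whose loss gives epileptic seizures in mice, lies 4.71 Mb from Csnk1e. It stood at 11.7, 12.6 and 14.4 CPM against 7.80, 9.80 and 10.5 CPM, without overlap and with a log2 fold change of 0.40 (SE 0.06, adjusted p = 0.0062 by edgeR). A930017M01Rik is annotated as a transcribed processed pseudogene and lies 34.5 Mb away, where it overlaps Sybu on the other strand. It ran from 15.8 to 20.4 CPM against 12.1 to 15.5 CPM, at 0.37 log2 (SE 0.06, adjusted p = 0.0131 by edgeR), while Sybu had 0.02 log2 (SE 0.05). The strand setting of the counting is not stated, so reads of overlapping genes may not have been kept apart. This holds also for Jrk, Rpl3 and Nudcd1, whose neighbours 4933427E11Rik, Syngr1 and Eny2 overlap them, with Syngr1 at -0.04 log2, Eny2 at -0.01 log2 and 4933427E11Rik too low to be tested.

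Mroh5, a member of the maestro heat-like repeat family, had the largest log2 difference among the 5 called genes that were lower on the low side, and lies 5.58 Mb from Csnk1e. Its levels were 0.106, 0.228 and 0.532 CPM (lowest, median, highest) on the low side and 0.724, 0.926 and 1.33 CPM on the high side, from 3 to 15 and 17 to 34 reads per library. The sides did not overlap, and the log2 fold change was -1.85 (SE 0.24, adjusted p = 0.00173 by edgeR). Mroh5 passed the filter on low counts only through the high side, and it too was not tested under the stricter filter. Of the 14 alternatives it was tested in 12 and called in 11. With no filter its adjusted p by edgeR was 0.00119. That fit also called Mroh4 and Cthrc1, both on chromosome 15 and not called in the main fit. Mroh4, of the same family, was higher on the low side, at 2.06 log2 (SE 0.26, adjusted p = 0.00068 by edgeR). Lynx1, a membrane-anchored protein that binds nicotinic acetylcholine receptors and dampens their response, lies 4.66 Mb from Csnk1e. It stood at 381, 409 and 459 CPM against 481, 519 and 633 CPM, without overlap, with a log2 fold change of -0.40 (SE 0.06, adjusted p = 0.0127 by edgeR). Rpl3, a protein of the large ribosomal subunit, lies 0.622 Mb beyond Csnk1e. It ran from 444 to 515 CPM with a median of 486 CPM against 534 to 631 CPM with a median of 576 CPM, without overlap, and its log2 fold change was -0.26 (SE 0.04, adjusted p = 0.0174 by edgeR).

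The remaining calls had the largest adjusted p and their sides overlapped. Nudcd1, a NudC domain protein 35.0 Mb from Csnk1e, ran from 11.3 to 16.1 CPM on the low side and from 14.7 to 19.8 CPM on the high side, at -0.44 log2 (SE 0.08, adjusted p = 0.0366 by edgeR). Spag1, needed in humans to assemble the dynein arms of motile cilia, lies 43.2 Mb away and ran from 6.82 to 10.5 CPM against 9.61 to 13.7 CPM, at -0.54 log2 (SE 0.10, adjusted p = 0.0373 by edgeR). When each library was left out in turn, Nudcd1 was called in 4 of 16 fits and Spag1 in 5 of 16. A930017M01Rik lost its call without the library labelled wild type 1 (adjusted p = 0.053 by edgeR) and Rpl3 without the one labelled wild type 2 (adjusted p = 0.0665 by edgeR), while the other 6 were called in all 16 fits. Without the libraries labelled knockout 1 and wild type 7, both rich in Ttr, 8 genes were called, and Nudcd1 and Spag1 were not among them.

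**Figure D2:**
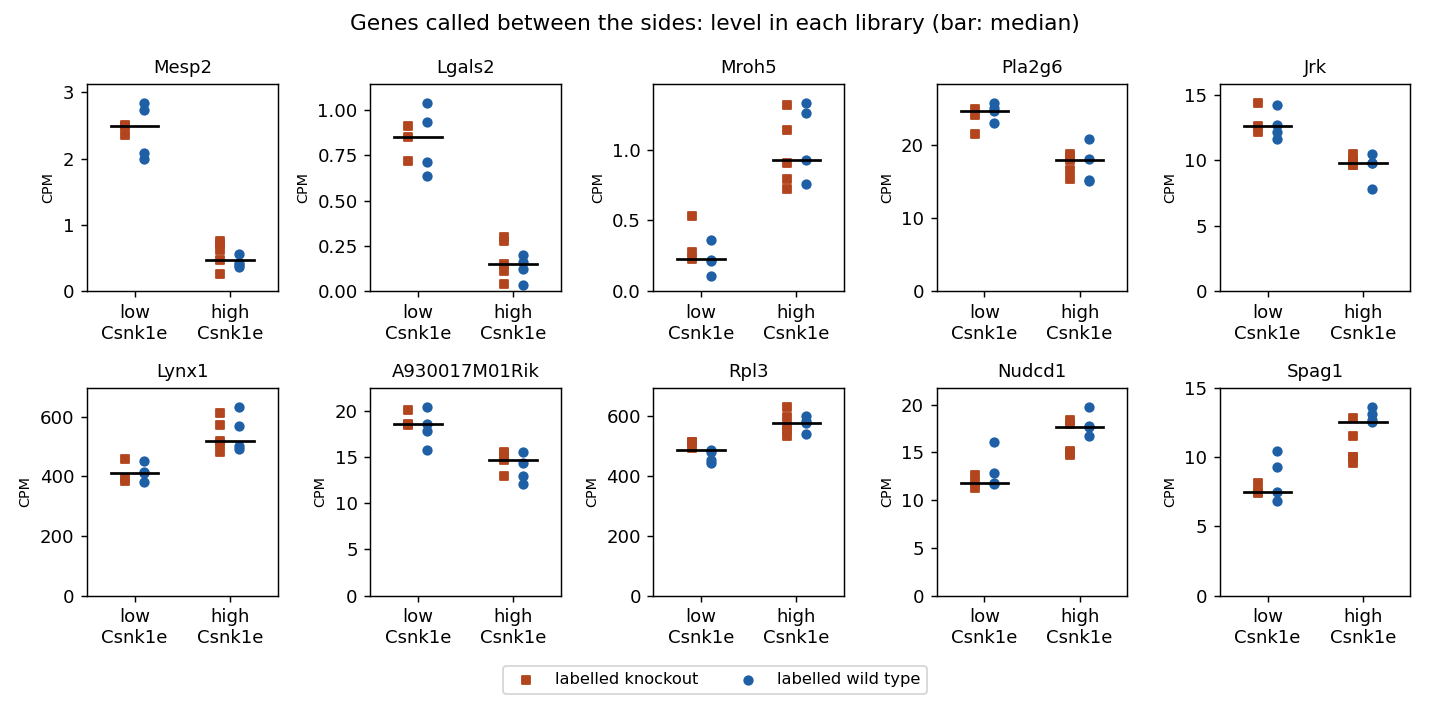
Level in CPM (vertical axes, each starting at 0) of the 10 called genes in each of the 7 low and 9 high libraries, 1 point per library (square for labelled knockout, circle for labelled wild type) with the median as a line. In 8 of the panels the 2 sides do not overlap, and in those of Nudcd1 and Spag1 they do.

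Over all 15516 genes, 9 (0.058%) had sides that did not overlap. They were the 8 called genes named above and Slc25a32, a mitochondrial carrier on chromosome 15, at 6.99 to 8.51 CPM against 8.58 to 9.88 CPM and with adjusted p = 0.445 by edgeR. Just above the threshold stood Cthrc1, 40.3 Mb from Csnk1e, with a median of 0.879 CPM against 4.13 CPM and a log2 fold change of -1.62 (SE 0.30, adjusted p = 0.0509 by edgeR). DESeq2, run on the same counts, called 20 genes, the 10 above and 10 more that were all on chromosome 15. Those were Card10, Cpq, Cthrc1, Fzd6, Gm10863, Hrsp12, Nipal2, Pnpla3, Ptp4a3 and Rgs22.

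The genes that differed lay along a long stretch of chromosome 15. Of 608 genes tested on this chromosome, 9 were called and 83 (13.7%) had an unadjusted p under 0.05, of which 39 were higher and 44 lower on the low side. On the other chromosomes 1 of 14854 was called and 470 (3.16%) were at that unadjusted level, from 1.3% on chromosome 14 to 4.55% on chromosome 10 among the autosomes and the X. Within 5 Mb of Csnk1e 5 of 204 genes were called, 3 higher and 2 lower, and 32 (15.7%) had an unadjusted p under 0.05. The rest of the chromosome held 4 calls and 51 such genes of 404 (12.6%). The called genes spanned 43.9 Mb, from the start of Spag1 at 36178099 to the end of Rpl3 at 80091868.

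In steps of 10 Mb from Csnk1e, the share at an unadjusted p under 0.05 was not even. It was 17% of 135 genes in the first step beyond Csnk1e and 16.9% of 130 genes in the first step before it. Further before Csnk1e it was 10% of 20 genes and 10.5% of 38 genes, then 36.8% of 19 genes between 30 and 40 Mb and 41.9% of 43 genes between 40 and 50 Mb. In the 3 steps beyond that it was 0% of 14 genes, 11.5% of 26 genes and 3.12% of 32 genes. The 11.5% is 3 genes, among them Prlr, a choroid plexus marker. Prlr was at 23.5 and 45.5 CPM in the libraries rich in Ttr, labelled knockout 1 and wild type 7, against 0.928 to 3.26 CPM in the others. Of the 18 genes between 40 and 50 Mb 14 were lower and 4 higher on the low side. Beyond 10 Mb on the other flank the shares were 1.27% of 79 genes and 2.78% of 72 genes, near those of other chromosomes. The genes of both directions were thus interleaved near Csnk1e, and the steps with 14 to 43 genes give coarse shares. Whether the libraries of the 2 sides carry different alleles on this stretch was not tested, since the files hold counts per gene.

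**Figure D3:**
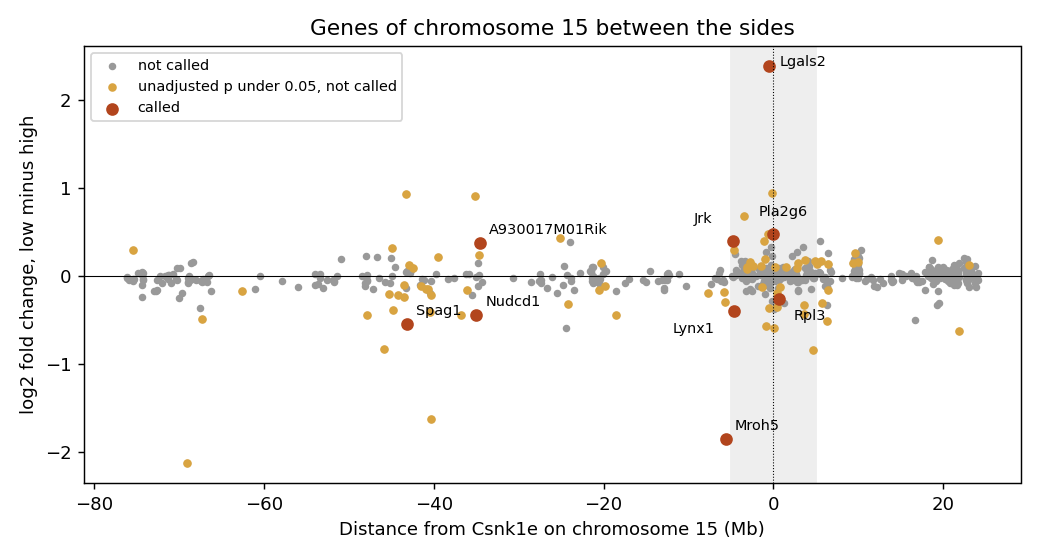
Log2 fold change, low minus high side (vertical axis), of the genes tested on chromosome 15 by distance of the gene from Csnk1e in Mb (horizontal axis), with called genes in red and named, other genes at an unadjusted p under 0.05 in ochre and the 5 Mb window shaded. The 9 calls lie between 43.2 Mb before and 0.622 Mb beyond Csnk1e, in both directions.

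**Figure D4:**
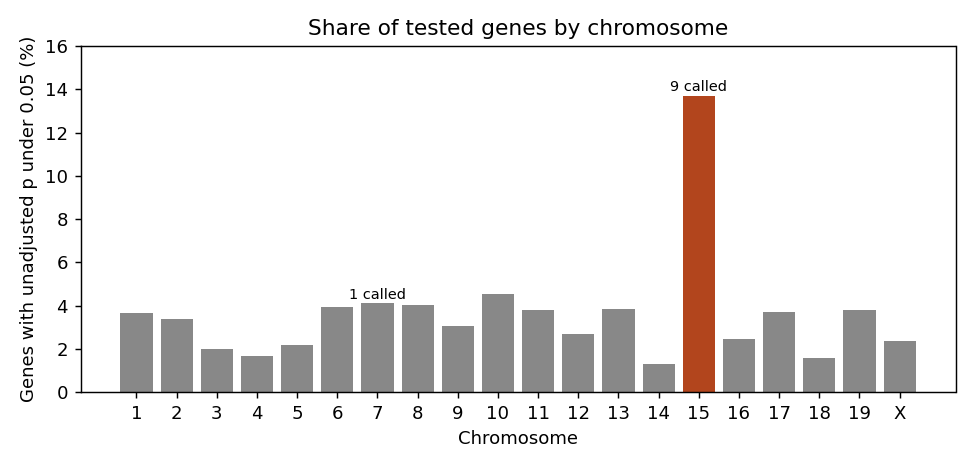
Share of the genes tested on each chromosome with an unadjusted p under 0.05 between the sides, in percent (bars, from 0), with the number of called genes printed above the bars that have any. Chromosome 15 stands at 13.7% with 9 called genes and chromosome 7 at 4.11% with 1.

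Library numbers 1 to 8 and 9 to 17 share no library, so each set gives the comparison afresh. Fitted alone, numbers 1 to 8 (3 low, 5 high) gave 0 calls of 15626 genes (0%) by edgeR, with 474 (3.03%) at an unadjusted p under 0.05, while DESeq2 called 8. Numbers 9 to 17 (4 low, 4 high) gave 5 calls of 15493 (0.0323%): Mesp2 and Lgals2 higher (0.0129%) and Pnpla3, Nudcd1 and Spag1 lower (0.0194%) on the low side, with 487 genes (3.14%) at the unadjusted level. In this set Lgals2 and Mesp2 passed the filter on low counts only through the low side, where they are high. On the high side Lgals2 ran from 0.0360 to 0.198 CPM and Mesp2 from 0.363 to 0.568 CPM. The count of 5 calls fell to between 1 and 4 when a library of the set was left out. It fell to 1 without any of the libraries labelled knockout 6, knockout 8, wild type 4, wild type 6 or wild type 7. It was 2 without knockout 7 or wild type 5. Without the library labelled wild type 8, where the sides equal the labels, it was 4.

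The signs of the sets were compared on chromosome 15 and elsewhere, as a description. Of the 48 genes there with an unadjusted p under 0.05 in numbers 1 to 8, 43 (89.6%) had the same sign in numbers 9 to 17 and 24 (50%) were also under 0.05. Of the 410 such genes on other chromosomes, 218 (53.2%) had the same sign and 10 (2.44%) were also under 0.05. All 24 on chromosome 15 had matching signs, 9 higher and 15 lower on the low side, and they ran from Cpq to Rpl3. Lgals2 and Mroh5 are among the 24. In each set they passed the filter on low counts only through the side where they are high, so their matching signs are no support. Elsewhere 4 matched and 6 were opposite, and the 4 were Mesp2, Col16a1, T2 and Thsd1. For Mesp2 the filter limit given above for numbers 9 to 17 holds here too.

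Taken over all genes tested in both sets, 59.1% of 607 on chromosome 15 and 51.2% of 14771 on the others had the same sign. Across genes, which are not independent replicates, Pearson's r between the log2 fold changes of the sets was 0.627 on chromosome 15 and 0.208 elsewhere, with Spearman's rho of 0.258 and 0.018. Both libraries rich in Ttr are on the high side, labelled knockout 1 in numbers 1 to 8 and labelled wild type 7 in numbers 9 to 17. Folr1, a choroid plexus marker, had -2.19 log2 in numbers 1 to 8 and -3.45 log2 in numbers 9 to 17. The part of such genes in these correlations was not tested. The called genes were picked on all 16 libraries, so their matching signs are no separate support. Mesp2 had a median of 2.09 CPM against 0.617 CPM in numbers 1 to 8 and of 2.49 CPM against 0.413 CPM in numbers 9 to 17. Lgals2 had 0.716 against 0.151 CPM and 0.881 against 0.142 CPM. Since neither gene overlapped between the sides over all 16 libraries, neither could overlap in a set, and this is no separate support.

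The difference between the sets was tested for every gene, and 0 of 15516 genes (0%) passed by edgeR, with 480 (3.09%) at an unadjusted p under 0.05, and DESeq2 also called 0. Pnpla3, a lipid droplet hydrolase 4.71 Mb beyond Csnk1e, had -0.38 log2 in numbers 1 to 8 and -1.32 in numbers 9 to 17, with p = 0.00301 unadjusted and 1.00 adjusted for the difference by edgeR. Smyd3, a lysine methyltransferase, had opposite signs in the sets, with -0.16 log2 (SE 0.07) in numbers 1 to 8 and 0.15 (SE 0.06) in numbers 9 to 17, and p = 0.00124 unadjusted and 1.00 adjusted for the difference by edgeR. Kif26b, a kinesin family member, had -0.27 (SE 0.14) and 0.28 (SE 0.14), with p = 0.0178 unadjusted and 1.00 adjusted by edgeR. Over all 16 libraries Smyd3 and Kif26b had log2 fold changes of -0.00 (SE 0.05) and 0.00 (SE 0.12), whose sign turned under several settings.

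**Figure D5:**
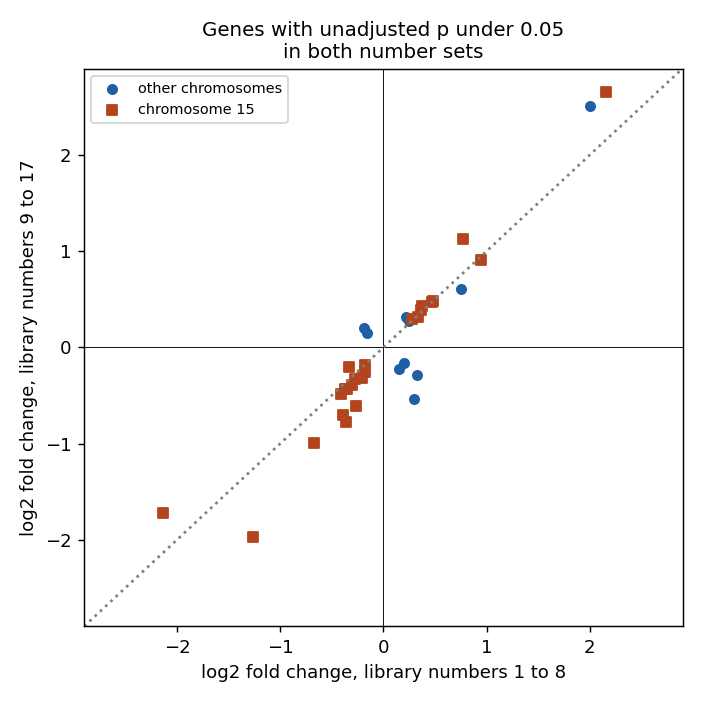
Log2 fold change, low minus high side, in library numbers 9 to 17 (vertical axis) against numbers 1 to 8 (horizontal axis), with chromosome 15 genes marked. Only genes at an unadjusted p under 0.05 in both sets are drawn, 1 point per gene. All 24 on chromosome 15 have the same sign in both sets, and on other chromosomes 4 have the same sign and 6 opposite signs. Among the 24, Lgals2 and Mroh5 passed the filter on low counts only through the side where they are high.

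Relatives and partners of Csnk1e were examined as gene lists. All 23 gene lists examined held 0 called genes, against 0.0644% of all genes tested, whose median log2 fold change was 0.00015. At that share, lists of this size would hold few calls or none, so the 0 is no result about the lists. Of 13 casein kinase relatives tested, 5 were above 0 and 8 below it, with a median of -0.0217 log2. Csnk1d, the closest relative, ran from 140 to 151 CPM with a median of 144 CPM on the low side and from 131 to 141 CPM with a median of 134 CPM on the high side. Its log2 fold change was 0.10 (SE 0.03, 95% interval 0.04 to 0.16, adjusted p = 0.871 by edgeR), and the sides overlapped. Csnk1a1, the alpha member, had -0.10 log2 (SE 0.04, adjusted p = 0.989 by edgeR).

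Clock transcripts, whose proteins the kinase acts on, had 8 of 25 above 0 and 17 below it, with a median of -0.0187 log2. Per1 stood at a median of 104 CPM against 92.2 CPM (0.08 log2, SE 0.14) and Per2 at 52.6 CPM against 49.4 CPM (0.05 log2, SE 0.14). Clock and Nr1d2, an activator and a repressor of the loop, had -0.11 log2 each. Of 29 Wnt genes 13 were above 0 and 16 below it, with a median of -0.0129 log2. Fzd6, a Frizzled receptor on chromosome 15, had medians of 11.7 CPM against 14.8 CPM and -0.41 log2 (SE 0.10, adjusted p = 0.434 by edgeR), and among the alternatives run it was called by DESeq2 only.

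Striatal signalling lists were described in the same way. Of 27 dopamine and DARPP-32 genes 9 were above 0 and 18 below it (median -0.033 log2), among them Rgs4 at -0.10 and Drd3 at 0.49 (SE 0.33). Of 14 opioid genes 6 were above 0 and 8 below it (median -0.0315), with Pomc at 0.29 and Pcsk1 at -0.17. The direct pathway list had 2 of 9 above 0 (median -0.0298) and the indirect pathway list 6 of 9 (median 0.027). Activity-regulated genes had 12 of 18 above 0 with a median of 0.0507. Npas4, a neuronal activity factor, had medians of 35.0 CPM against 16.8 CPM and 0.60 log2 (SE 0.29), and Junb had 0.40 (SE 0.16), both with adjusted p = 0.989 by edgeR.

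Other cell types were compared in the same way. Oligodendrocyte markers had 12 of 15 above 0 (median 0.0915) and summed to 10260 to 16700 CPM on the low side and 8975 to 17230 CPM on the high side. Markers of their precursors had 5 of 6 above 0, those of astrocytes 6 of 10, of microglia 4 of 11, of endothelial cells 5 of 9, of interneurons 5 of 12, of cortical excitatory neurons 5 of 9 and of neighbouring regions 3 of 9. Mural cell markers had 1 of 9 above 0 (median -0.0776) and ependymal markers 7 of 7 (median 0.137). The choroid plexus list had 0 of 7 above 0 and a median of -2.66, with sums of 332 to 573 CPM on the low side and 282 to 4231 CPM on the high side. That median rests on the libraries labelled knockout 1 and wild type 7: Folr1, a folate receptor, had -2.84 log2 with them and 0.20 without them. Of the MHC class I genes 10 of 11 were above 0 (median 0.115), of the heat shock genes 1 of 13 (median -0.0781) and of the sex-linked genes 4 of 5 (median 0.496), and Alas2, the one blood gene tested, had 0.09 log2. The fits without the libraries rich in Ttr and with Xist as a covariate are given above, and the part of the other lists in the calls was not tested.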

How the data were processed

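The authors deposited unnormalized counts of reads for every gene, with a file for each lane of each library, on the build mm10 per the submitters' processing notes. These also list edgeR 2.14, HTSeq 0.6.1p1, TopHat2 2.0.0 and FastQC 0.10.1, with no role stated. Neither the annotation nor the strand setting is given in the sources used here. Of each file 23420 genes were used and 5 rows that name no gene were dropped. Here the 4 lanes of each of the 16 libraries were summed, levels were computed as CPM and sides were set by Csnk1e at 58 CPM. Grouping by a measured level makes the sides a description of the libraries and not an assigned treatment.

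The test was edgeR 4.0.16 (glmQLFit and glmQLFTest, R 4.3.3) on genes kept by filterByExpr (TMM scaling, two-sided, Benjamini-Hochberg adjustment over all genes tested, threshold 0.05). Csnk1e was left out of calls and of the adjustment. The fit was tested on simulated data first. DESeq2 1.42.0, limma-voom 3.58.1, other scalings, filters, covariates, single lane sets and leaving out each library were alternatives. Lane set A holds the files whose titles end with the lane alone, and lane set B those with a further number after the lane. The titles do not say what divides these lane sets. Positions of 23283 genes came from GENCODE M21 or RefSeq on GRCm38, and sequences from RefSeq on GRCm38.p6.

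The members, gene lists and tests were chosen with earlier results of these data known. The text names 44 genes by rule: the called genes (the rule also takes called genes within 5 Mb of Csnk1e and genes called in both number sets, which added none), Csnk1d, Csnk1a1, Per1, Per2, Smyd3 and Kif26b, and 1 or 2 members per list by smallest p. Genes near the threshold and those under it in both number sets were named after their values were seen. Reads carry no molecular identifiers, so read counts cover counting error only, and nothing but the mouse numbers says how the libraries are separate.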

Additional observations from a re-analysis of the deposited data

Results flagged for a closer look

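In 88 groups of 7 or 9 libraries (44 genes on each side), the library farthest from the rest was compared with the spread of its side, and 7 stood apart, where chance gives about 1 in 20. The groups share libraries and their genes were partly chosen by smallest p, so this count is a description and no test. Among the called genes, Jrk was at 7.805 CPM in the library labelled wild type 5 on the high side, against 9.624 to 10.49 CPM in the other libraries of that side. Nudcd1 was at 16.07 CPM in the library labelled wild type 3 on the low side, against 11.25 to 12.85 CPM. The library labelled knockout 8, on the low side, had Xist at 1484 CPM against 1.455 to 11.26 CPM. It was the sole low library with Xist above 1000 CPM. Its Ddx3y was at 0.872 CPM, while the other 6 low libraries had more than 60 CPM. The Xist and Ddx3x values of this library are thus not separate observations from its sex-linked transcripts. The same library had Ddx3x, an X-linked helicase, at 354.5 CPM against 254 to 291.9 CPM and Dnaja1, a heat shock co-chaperone, at 321.2 CPM against 252.3 to 272.4 CPM. The library labelled wild type 1, on the low side, had the MHC class I gene H2-Q4 at 14.73 CPM against 5.65 to 7.15 CPM and the immunoproteasome subunit Psmb8 at 5.261 CPM against 3.111 to 3.904 CPM.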

How the results depend on the processing

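Against the main count of 10 called genes, 5 of them within 5 Mb of Csnk1e, DESeq2 called 20 and 8, lane set A alone 6 and 3, and lane set B alone 6 and 3. The other scalings, filters, covariates, limma-voom, the continuous Csnk1e level and leaving out both libraries rich in Ttr gave 8 to 13 calls. Leaving out 1 library gave 7 to 12 calls, 4 to 7 of them within 5 Mb, with 379 to 1485 genes at an unadjusted p under 0.05, the highest without the library labelled knockout 8. In numbers 1 to 8 DESeq2 called 8 and leaving out 1 library gave 0 to 0. In numbers 9 to 17 DESeq2 called 10 and leaving out 1 library gave 1 to 4. The difference between the sets gave 0 calls in every fit.

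With the mouse number as a replicate block, 1 gene (Mesp2, adjusted p = 0.0066 by edgeR) was called, and 0 within 5 Mb. Same-numbered libraries had correlations of -0.332 to 0.0859 and 0 of 8 matched their own number best. Weak correlations cannot tell whether same-numbered libraries share more than a number.

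Signs reversed for Smyd3 (0.005603 upper quartile, 0.004469 voom, 0.0005694 stricter filter, 0.007024 number set, 0.02011 labelled genotype, 0.004315 Xist, 0.01357 continuous level, 0.006976 lane set A) and Kif26b (-0.0009923 RLE, -0.002317 DESeq2, -0.02064 without the Ttr-rich libraries, -0.01615 lane set B). They also reversed for Folr1 (0.1788 DESeq2, 0.2001 without the Ttr-rich libraries) and Neu4 (-0.03254 replicate block). Leaving out 1 library gave -0.02007 to 0.03224 for Smyd3, -0.06577 to 0.08026 for Kif26b and -0.04544 to 0.14 for Per2. The cause was not tested.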
